A study of Mus musculus with 13 samples.

Results

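The oligoadenylate synthetases and PKR are enzymes that sense double-stranded RNA, and they were followed here through 7 of the 13222 genes in the expression table. The 7 genes were taken by name. They were the synthetase genes Oas1a, Oas1g, Oas2 and Oas3, the synthetase-like genes Oasl1 and Oasl2, and Eif2ak2, which encodes PKR. All of them were listed, and all of them passed the filter on low values that left 12319 genes for testing. RNA came from 4T1-Thy1.1 cells, a triple negative mammary carcinoma line of BALB/c mice that carries a Thy1.1 surface marker transgene and was grown with serum, in DMEM/F12 by the labels although the study's methods name RPMI for 4T1 cells. The cells were left untreated (control, n = 3), or were given doxorubicin at 200 ng/mL (DOX, n = 4), recombinant mouse IL-17A at 25 ng/mL (IL-17A, n = 3) or both agents at those doses (DOX+IL-17A, n = 3), for 48 hours. The comparison asks how IL-17A alters what this cytotoxic anthracycline does to tumor cells. All libraries came from a single cell line that was cultured without host cells by design. Transcripts of muscle and red blood cell markers were still read, as given below. The labels do not say whether libraries of a condition were separate cultures, so p-values measure the spread between these libraries, which may be technical.

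Oligoadenylate synthetases bind double-stranded RNA and join ATP into short 2′-5′ linked oligoadenylates. These act as a second messenger in the antiviral response, which ends in the cutting of cellular and viral RNA. PKR binds the same kind of RNA and phosphorylates the translation initiation factor eIF2, which lowers protein synthesis. The genes are best known as targets of type I interferon, whose receptor signals to a DNA element called the ISRE.

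In the GENCODE annotation of the GRCm38 (mm10) mouse genome, the 7 genes were protein coding and lay at 3 places. Oas2 (chr5:120730333-120749853), Oas3 (chr5:120753098-120777661), Oas1g (chr5:120876142-120887613) and Oas1a (chr5:120896256-120907521) lay in this order on the minus strand within 177189 bases of chromosome 5. Other Oas1 genes lay between Oas3 and Oas1g. Oasl2 (chr5:114896936-114912234) and Oasl1 (chr5:114923240-114937915) were neighbours on the plus strand of the same chromosome. Eif2ak2 was on the minus strand of chromosome 17 (chr17:78852564-78882573).

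Promoter sequence from 250 bases before to 50 bases after the start site was matched in the RefSeq table (GRCm38.p6) for 6 of the 7 genes, all but Oas2. The core letters of the ISRE, searched as GAAANNGAAA on both strands, were in 4 of these 6 windows, against 1131 of 32851 promoters of the same length (3.44%). The stretches that hold the matches are shown with the matches in capitals, each written 5′ to 3′ on the strand of its gene. Whether the matches go with the levels of the genes was not tested. They span chr5:120907526-120907645 for Oas1a, chr5:120887614-120887733 for Oas1g, chr5:120777660-120777779 for Oas3 and chr17:78882534-78882563 for Eif2ak2.
Oas1a: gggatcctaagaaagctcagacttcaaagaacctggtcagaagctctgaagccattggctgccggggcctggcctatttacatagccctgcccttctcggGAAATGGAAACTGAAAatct
Oas1g: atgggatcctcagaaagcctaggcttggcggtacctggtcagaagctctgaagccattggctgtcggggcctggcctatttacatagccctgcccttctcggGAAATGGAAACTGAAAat
Oas3: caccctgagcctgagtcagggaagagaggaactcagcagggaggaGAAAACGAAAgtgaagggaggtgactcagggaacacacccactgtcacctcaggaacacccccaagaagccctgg
Eif2ak2: gtccgccggGAAAACGAAAcagaagagaac
In Oas1a a pair of overlapping matches began 20 and 14 bases before the start site, and in Oas1g a pair with the same letters began 18 and 12 bases before it. The match of Oas3 began 75 bases before the start site and that of Eif2ak2 began 19 bases after it, and both read GAAAACGAAA. The windows of Oasl1 and Oasl2 did not hold these letters. The letters of the GAS element, TTCNNNGAA on both strands, which reads the same way on either strand, were in 2 of the 6 windows (Oas1a and Eif2ak2), against 8.30% of all promoters. The motifs do not overlap each other in these windows. A match is a description of the sequence and not evidence of a bound factor.

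Depth ranged from 4445592 to 16930600 reads on listed genes per library, and a single read was worth 0.0609 to 0.204 normalized units, so 3 reads correspond to 0.183 to 0.613 units. Values are read counts of 3′ end sequencing divided by a scaled library size (TMM), and they are called units below. All 7 epithelial markers of these cells had reads in every library, with a summed level of 1974 to 2357 units in control, 1755 to 2126 in IL-17A, 994 to 1100 in DOX and 872 to 1081 in DOX+IL-17A. Of 10 immune cell markers, 4 were listed. Their sum was 18.6 to 21.3 units in control, 27.1 to 51.3 in DOX, 12.5 to 19.6 in DOX+IL-17A and 10.6 to 16.3 in IL-17A. Ptprc, which marks all leukocytes, stayed at or below 3.57 units and was lower in DOX (0.644 to 1.42) than in DOX+IL-17A (2.45 to 3.57). In DOX the sum was carried by Csf1r (16.6 to 35.0 units) and Cd68 (9.09 to 18.0 units). Muscle and red blood cell markers reached their highest sums, 278 and 66.5 units, in DOX replicate 1. Within control they were highest in replicate 1, at 49.6 and 14.4 units. Without DOX replicate 1 all 7 genes kept the calls in DOX against control that are described next. In DOX+IL-17A against DOX the count of called genes then went from 2 to 4. Csf1r read 14.1 to 16.7 units in control, 2.48 to 9.55 in DOX+IL-17A and 2.14 to 7.07 in IL-17A. It was thus not raised in every condition with DOX. Cd68 read 0 to 6.27, 6.16 to 6.87 and 4.68 to 13.1 units in the same order. The epithelial sum was lower in each condition with DOX. The part of these markers in the results was not tested.

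All 7 genes were up-regulated by DOX relative to untreated controls, against 9.15% of all tested genes. Oas2 rose the most, from under 1 unit to a mean of 26.4 units, and the other genes rose 3.68 to 8.46 times in the ratio of means. With IL-17A added to DOX, every one of the 7 genes was lower than in any DOX library, which held for 5.61% of tested genes. The mean was 0.168 to 0.541 times that with DOX alone. Of these decreases, 2 passed the adjusted threshold, against 0.325% of tested genes called lower, and those calls were not stable when libraries were left out. IL-17A alone changed none of the 7 genes past the threshold. In bulk RNA, fewer cells with a transcript and less of it per cell cannot be told apart.

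**Figure D1:**
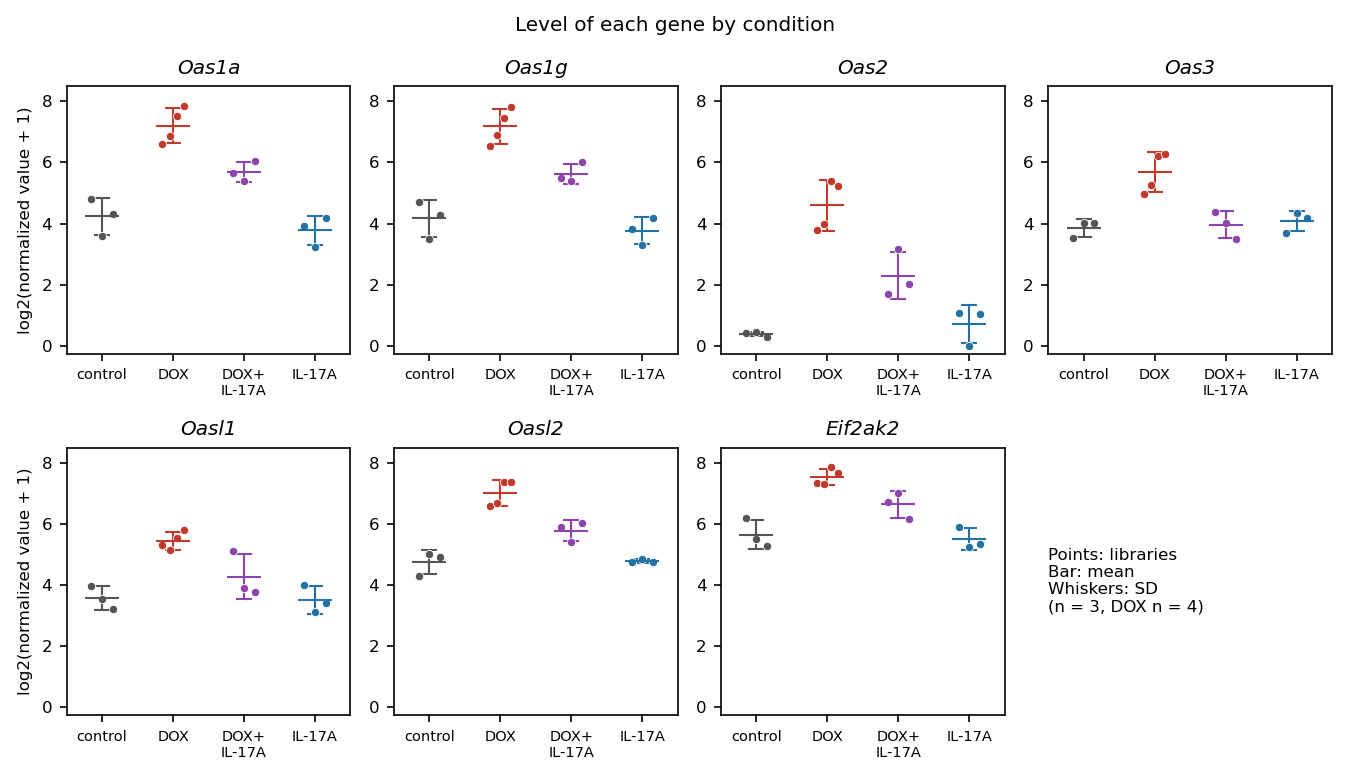
Level of the 7 genes in each library, as log2(normalized value + 1) on the y axis, by condition on the x axis; points are libraries, the horizontal bar is the mean and the whiskers are the SD (n = 3, and n = 4 for DOX). Every DOX library lies above every library of the other 3 conditions for all 7 genes. Of tested genes, 18.5% had every DOX library above control and 5.61% had every DOX+IL-17A library below DOX. The share for the 3 conditions at once was not computed. The DOX+IL-17A mean lies between those of DOX and control, next to control for Oas3.

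In DOX against control, 7 of 7 genes were called higher (adjusted p below 0.05, more than 2-fold), against 9.15% of all tested genes called higher. For all 7 genes the lowest DOX value exceeded the highest control value, against 18.5% of tested genes. Their log2 fold changes ran from 1.83 to 4.21 with a median of 2.25, and the median of all tested genes was 0.09. The exact permutation p of each gene was 0.0571, the smallest that 4 against 3 libraries allow, so the calls rest on the fit across all genes.

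Among the synthetases, Oas1a read 26.9, 11.1 and 18.7 units in control replicates 1, 3 and 5, and 96.4, 114, 182 and 229 units in DOX replicates 1 to 4. The lowest DOX library was thus well above the highest control. The log2 fold change was 2.97 (SE 0.35, limma adjusted p = 6.01e-05). Oas1g, a close paralog in the same cluster, gave nearly the same numbers, with 25.4, 10.4 and 18.4 units in control and 92.7, 118, 176 and 224 units in DOX. Its log2 fold change was 3.01 (SE 0.34, limma adjusted p = 4.74e-05).

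Oas2, whose enzyme makes longer oligoadenylates from a tandem pair of synthetase units, was close to the limit of detection without DOX. Control replicates 1, 3 and 5 read 0.338, 0.365 and 0.236 units, which are 2 to 6 reads per library and 10 reads in all. In DOX it read 12.9, 14.7, 41.0 and 36.9 units, or 134 to 413 reads per library. The ratio of summed reads was 77.3 (exact 95% interval for counting error alone 41.8 to 162), and the fitted log2 fold change was 4.21 (SE 0.47, limma adjusted p = 4.51e-05), which depends on the pseudocount because the control level is so low. Oas3, the largest synthetase, was easily measured in untreated cells, at 10.5, 15.3 and 15.2 units, and rose to 30.6, 37.3, 73.7 and 76.8 units. Its log2 fold change of 1.83 (SE 0.35, limma adjusted p = 0.0021) was the smallest fitted for the 7.

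The synthetase-like genes rose to a similar degree. Oasl1, whose product is known to hold back translation of Irf7 mRNA, went from 14.7, 10.7 and 8.25 units to 38.5, 34.0, 45.6 and 54.5 units, a log2 fold change of 1.87 (SE 0.35, limma adjusted p = 0.0019). Oasl2, which has kept synthetase activity in mice, went from 18.6, 31.5 and 29.5 units to 94.5, 102, 163 and 165 units, a log2 fold change of 2.25 (SE 0.26, limma adjusted p = 5.99e-05). In neither gene did the groups overlap. Eif2ak2, the PKR gene, read 71.6, 44.0 and 38.1 units in control and 161, 159, 233 and 201 units in DOX. The highest control library again stayed below the lowest DOX library, and the log2 fold change was 1.89 (SE 0.27, limma adjusted p = 2.83e-04).

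**Figure D2:**
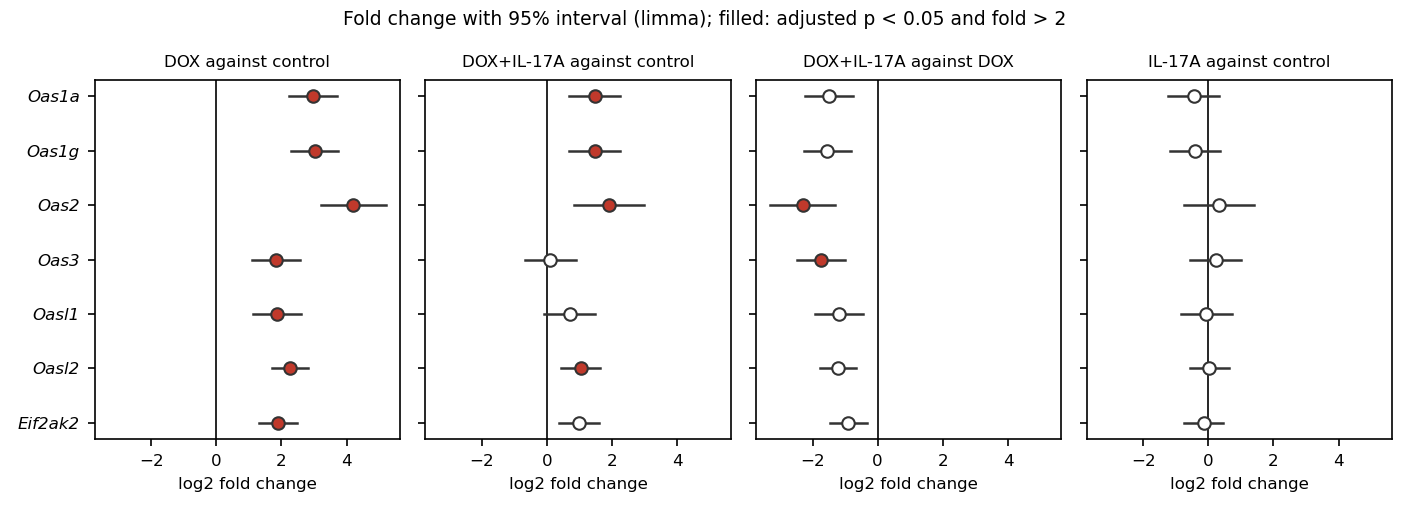
Log2 fold change of each gene on the x axis with its 95% interval from limma, for 4 comparisons; filled points passed both thresholds, for adjusted p (0.05) and fold (2). All 7 genes are filled in DOX against control, 4 in DOX+IL-17A against control, 2 in DOX+IL-17A against DOX and 0 in IL-17A against control.

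The size of the rise was compared among genes within the same libraries, with Oas3 as the reference. With so few libraries the exact permutation test could not pass the threshold, so it could not decide whether the rises differed. Oas3 was picked as the gene with the smallest fitted rise in these same libraries. Every difference was thus bound to be positive, and the p-values do not account for that choice. Relative to Oas3, the log2 rise with DOX was 2.38 greater for Oas2, 1.14 for Oas1a, 1.18 for Oas1g and 0.42 for Oasl2, with no overlap of the groups (exact permutation p = 0.0571, the smallest possible, adjusted p = 0.0857 over 6 genes). For Oasl1 and Eif2ak2 the difference from Oas3 was 0.04 and 0.06, and the groups overlapped (exact permutation p = 0.971).

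The 4 DOX libraries fell into a lower and a higher pair. DOX replicates 3 and 4 were above replicates 1 and 2 for all 7 genes, which holds for 24.8% of all tested genes. For Oas2 the higher pair was at 41.0 and 36.9 units and the lower pair at 12.9 and 14.7. For Eif2ak2 the pairs were nearer, at 233 and 201 against 161 and 159 units. The depths of replicates 1 to 4 were 11692332, 8839399, 6477647 and 10489316 reads, and the shallowest library was in the higher pair and the deepest in the lower pair. The summed levels of 4 marker lists of other cell types parted along the same pairs but in the opposite order. In replicates 1 to 4 they were 51.3, 42.9, 27.1 and 29.3 units for immune cells, and 49.7, 33.9, 30.2 and 19.6 units for fibroblast and endothelium. They were 278, 38.4, 17.2 and 14.8 units for muscle, and 66.5, 5.47, 3.91 and 1.34 units for red blood cells. The epithelial markers of the 4T1 cells parted the same way, at 1100, 1031, 996 and 994 units. Esr1 and Erbb2, receptors low in triple negative cells, summed to 9.58, 9.63, 11.7 and 8.85 units and did not part along the pairs. The part of depth and of these markers in the split was not tested. The interferon pathway gene Irf7 (63.8, 67.4, 126 and 139 units) showed the same pairs. It was among the 10 genes most like the mean of the 7 in these same libraries, so shared pairs were partly built in.

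**Figure D3:**
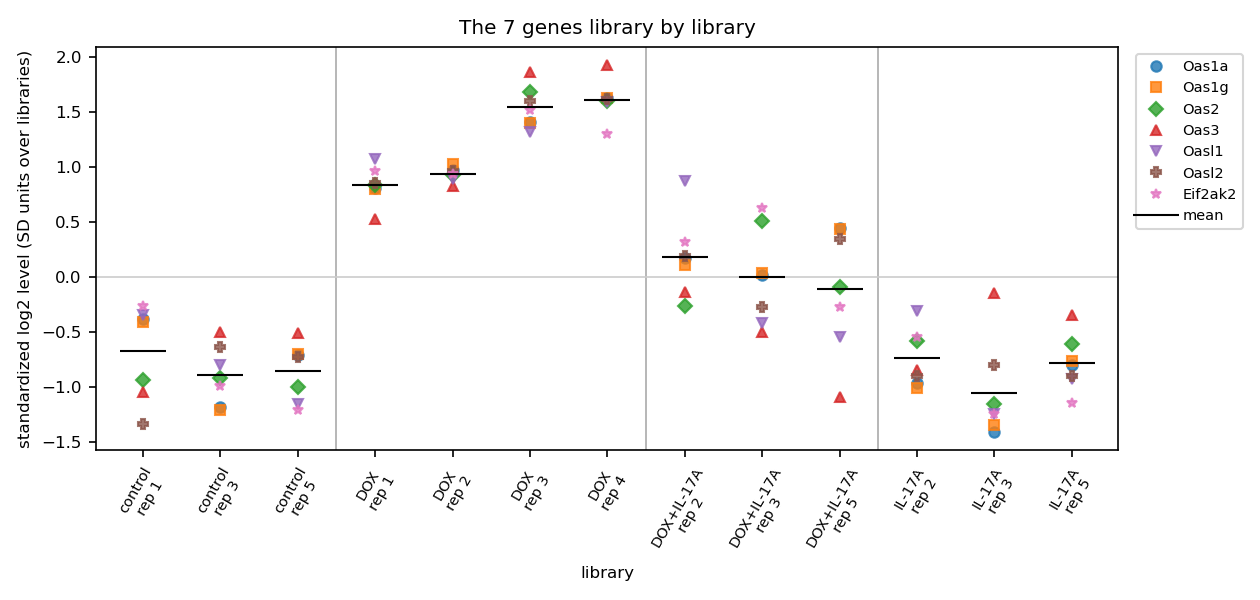
Standardized log2 level of each gene in each of the 13 libraries, in SD units over the libraries, with the mean of the 7 genes as a black bar; vertical lines part the conditions. The bars of DOX replicates 3 and 4 are at 1.54 and 1.61, those of DOX replicates 1 and 2 at 0.83 and 0.93, those of DOX+IL-17A between -0.11 and 0.18, and those of control and IL-17A at -0.67 and below.

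When IL-17A was given together with DOX, a comparison that shares the DOX libraries with the one above, 2 of 7 genes were called lower than with DOX alone, Oas2 and Oas3, against 0.325% of all tested genes called lower. All 7 had an unadjusted limma p under 0.05, against 6.35% of tested genes in either direction, and all 7 were below every DOX library, against 5.61%. The log2 fold changes ran from -2.31 to -0.90 with a median of -1.50, and the median of all tested genes was -0.03.

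Oas2 read 2.25, 7.94 and 3.06 units in DOX+IL-17A replicates 2, 3 and 5, or 11 to 80 reads per library, and every value was under the lowest DOX library. The log2 fold change was -2.31 (SE 0.47, limma adjusted p = 0.0422). Oas3 read 19.6, 15.3 and 10.2 units, within the range of the untreated cells in 1 library, just below the lowest control in another and above the highest in the third. Its log2 fold change against DOX was -1.73 (SE 0.35, limma adjusted p = 0.0408).

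For the other 5 genes the groups did not overlap, but the adjusted p missed the threshold. Oas1a read 49.1, 41.3 and 65.2 units (log2 fold change -1.50, limma adjusted p = 0.0925) and Oas1g read 44.4, 41.0 and 63.2 units (log2 fold change -1.55, limma adjusted p = 0.0731). Oasl2 read 58.3, 41.3 and 65.0 units, which gave a log2 fold change of -1.22 (limma adjusted p = 0.0600). Of the log2 rise of these 3 genes with DOX, 45.8% to 49.4% was left. Oasl1 was uneven, with 33.7, 14.0 and 12.7 units, the first nearly at the lowest DOX library and the others near control (log2 fold change -1.17, limma adjusted p = 0.274). Eif2ak2 read 105, 129 and 71.0 units, a log2 fold change of -0.90 (limma adjusted p = 0.274) and the smallest decrease of the 7.

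The calls in this comparison turned on single libraries. Without control replicate 5, DOX replicate 3, DOX replicate 4, or any 1 of the DOX+IL-17A libraries (2, 3 or 5) or IL-17A libraries (2, 3 or 5), 0 of the 7 genes were called. Without control replicate 1 there were 5, without control replicate 3 or DOX replicate 1 there were 4, and without DOX replicate 2 there were 2. They also turned on the method. None of the 7 was called with library size scaling or with a pseudocount of 0.1, edgeR's quasi-likelihood test on the recovered reads called Oas3, and voom with limma, the method the study names, called Oas1g, Oas3 and Oasl2 but not Oas2 (adjusted p = 0.129). DESeq2 and the fit of the compared groups alone called Oas1a, Oas1g, Oas2, Oas3 and Oasl2. The immune marker sum was also higher in DOX than in DOX+IL-17A, as given above, and its part in the result was not tested, whereas the leukocyte marker Ptprc was lower in DOX.

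Set against untreated cells, DOX+IL-17A still had 4 of 7 genes called higher, Oas1a, Oas1g, Oas2 and Oasl2, against 6.95% of tested genes called higher. Oas1a and Oas1g were each 1.47 higher on the log2 scale (SE 0.37, limma adjusted p = 0.0142 and 0.0136). Oas2 was 1.90 higher (SE 0.51, limma adjusted p = 0.0182) and its summed reads were 13.9 times those of control (exact 95% counting interval 7.35 to 29.7). Oasl2 was 1.03 higher (SE 0.28, limma adjusted p = 0.0206). In these genes every DOX+IL-17A library was above every control library, which held for 15.6% of tested genes. Eif2ak2 was 0.99 higher (limma adjusted p = 0.0273), just under the fold limit, and its lowest DOX+IL-17A library (71.0 units) was under its highest control (71.6 units).

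Oas3 and Oasl1 did not pass in DOX+IL-17A against control. For Oas3 the log2 difference was 0.10 (95% interval -0.69 to 0.89, limma adjusted p = 0.881), so that 5.54% of its log2 rise with DOX was left, as against 37.1% to 52.2% for the other 6 genes. Oasl1 was 0.69 higher (95% interval -0.10 to 1.48, limma adjusted p = 0.209). Whether the lower standing of Oas3 differed from that of the others could not be decided, because the exact permutation test could not pass 0.05 here. Oas3 had the smallest log2 difference of the 7, so every difference from it was bound to be positive. Relative to Oas3 in the same library, Oas2 and Oasl2 were higher in DOX+IL-17A than in control with no overlap (exact permutation p = 0.1, the smallest that 3 against 3 allow, adjusted p = 0.24 over 6 genes), and the other 4 genes overlapped. Without DOX+IL-17A replicate 5 the count of called genes fell from 4 to 2, with limma adjusted p = 0.0513 for Oas1a, 0.0503 for Oas1g and 0.0666 for Oasl2, and in the fit of the compared groups alone it fell to 1. Oas2 lost its call without control replicate 5 (limma adjusted p = 0.0544) or DOX+IL-17A replicate 3 (0.0878) and with voom and limma (adjusted p = 0.1), and Oasl2 lost its call without control replicate 1, where its log2 difference was 0.80, or DOX+IL-17A replicate 2 (0.0642).

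IL-17A alone gave 0 of 7 calls relative to control, against 0.00812% of tested genes called, which is 1 gene. None of the 7 had an unadjusted limma p under 0.05, against 3.08% of tested genes (380), and edgeR, voom with limma and DESeq2 also called 0 of the 7. Oas1a read 14.2, 8.49 and 17.1 units in IL-17A replicates 2, 3 and 5, and Oas1g read 13.1, 8.80 and 17.1. Oas3 read 12.1, 19.5 and 17.1 units, the latter 2 above the highest control (15.3 units), and Oasl1 read 15.1, 7.70 and 9.76 units, overlapping control. Oasl2 was at 25.9, 27.8 and 25.9 units and Eif2ak2 at 59.4, 37.1 and 39.8 units, again overlapping control. Oas2 had 1.13, 0 and 1.07 units, with 0 reads in replicate 3, where 3 reads would be 0.472 units.

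The log2 differences between IL-17A and control lay between -0.45 (Oas1a) and 0.32 (Oas2), with limma adjusted p from 0.959 to 0.995. The widest 95% interval was that of Oas2 (-0.75 to 1.39) and the narrowest that of Oasl2 (-0.56 to 0.63), so changes within those bounds are not excluded by these libraries. In the order of means DOX was the highest for every gene, and DOX+IL-17A was second in 6 genes, with control and IL-17A below it and not different beyond their spread. For Oas3 the second was IL-17A, at 16.2 ± 3.79 units (SD, n = 3), against 15.0 ± 4.73 units (SD, n = 3) in DOX+IL-17A and 13.7 ± 2.76 units (SD, n = 3) in control, and these 3 did not differ beyond their spread.

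Cells given both agents were also compared with cells given IL-17A alone. Here 4 of 7 genes were called higher, Oas1a, Oas1g, Oas2 and Eif2ak2, against 4.92% of tested genes. Oas1a was 1.92 and Oas1g 1.87 higher on the log2 scale (limma adjusted p = 0.0045 and 0.0049), and these calls held whichever library was left out. Eif2ak2 was 1.14 higher (SE 0.29, limma adjusted p = 0.0175). Oas2 was 1.58 higher with an adjusted p at the threshold (limma, 0.0498), and it kept its call in 2 of 13 fits that left out a library and lost it with voom and limma (adjusted p = 0.171). Oasl2 was 0.996 higher (limma adjusted p = 0.0286) but under the fold limit, Oasl1 0.75 higher (0.196), and Oas3 differed by -0.12 (0.867). Without DOX+IL-17A replicate 2, IL-17A replicate 3 or IL-17A replicate 5, the calls were those of Oas1a and Oas1g, and without DOX+IL-17A replicate 3 the call of Eif2ak2 was replaced by that of Oasl2.

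The difference between the effect of IL-17A with DOX and its effect without DOX was tested itself. It was negative for all 7 genes, from -2.63 for Oas2 and -1.95 for Oas3 to -0.76 for Eif2ak2 on the log2 scale. No gene passed after adjustment (limma adjusted p from 0.593 to 0.901), and 0% of tested genes did. The unadjusted limma p was under 0.05 for 5 of the 7 genes (Oas1g, Oas2, Oas3, Oasl1 and Oasl2), against 4.51% of tested genes. DESeq2 called 18 genes in all and 0 of the 7, and edgeR and voom with limma called 0 genes.

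Oas1a and Oas1g could not be read as separate measurements. The reads of Oas1g were 0.904 to 1.04 times those of Oas1a in the 13 libraries (median 0.969), from 54 and 56 reads in IL-17A replicate 3 to 2559 and 2504 in DOX replicate 4. In 12 of the 13 libraries the pair differed by no more than 1 SD of counting error. In the GENCODE transcripts, 46.9% of all 75 base windows of Oas1a were also in Oas1g, and 46.0% of those in its last 500 bases, where these libraries take their reads, against 18.5% for the last 500 bases of Oas1g. How reads that match both genes were counted is not given in the sources used here. Summing the pair changed no call. Counts over the 7 genes include this pair as 2 genes.

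**Figure D4:**
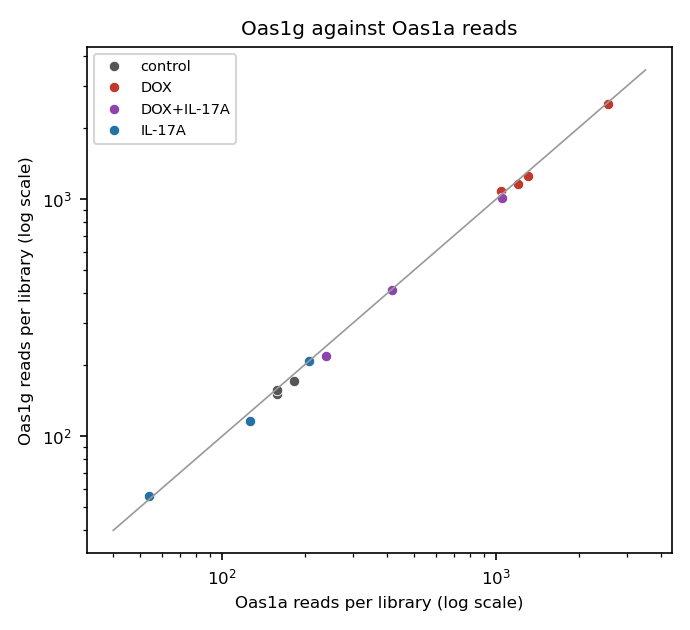
Reads of Oas1g on the y axis against reads of Oas1a on the x axis, both on log scales, in each of the 13 libraries coloured by condition; the line marks equal reads. All libraries lie on or next to the line, with a ratio between 0.904 and 1.04.

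Across the 13 libraries the log2 levels of the other pairs of genes, 20 in number, correlated with Pearson's r from 0.745 (Oas3 with Eif2ak2) to 0.945, with a median of 0.890. These values describe libraries that share 4 conditions and are given without a test. The 10 genes with a pattern most like the mean of the 7, out of 9483 tested genes with a mean of at least 5 units, were Slfn8 (r = 0.989), Mx2 (0.988), Irf7 (0.984), Gbp3 (0.981), Phf11d (0.980), Ifit3b (0.980), Cd274 (0.980), Ifi44 (0.979), Igtp (0.978) and Gbp7 (0.977). Slfn8 was at 27.8 ± 1.48 units in control, 85.5 ± 16.1 in DOX, 42.0 ± 2.02 in DOX+IL-17A and 25.5 ± 1.11 in IL-17A (SD, n = 3, and 4 for DOX). Cd274, which encodes the immune checkpoint ligand PD-L1, was at 1.55 ± 0.27, 25.0 ± 6.47, 6.70 ± 1.21 and 2.70 ± 0.62 units in the same order.

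Of 10 other genes listed for the 2-5A pathway 6 were in the table, and DOX raised 2 of them, where 9.15% of all tested genes were called higher. The median log2 fold change of the 6 was 0.71. Oas1b, which encodes a truncated or full-length synthetase depending on the mouse strain, rose by 2.47 on the log2 scale (limma adjusted p = 0.0010), from 2.36 to 2.98 units in control to 8.21 to 36.2 units in DOX. Pde12, a phosphodiesterase that degrades the oligoadenylates, rose by 1.44 (limma adjusted p = 0.0112). None of the 6 was called in DOX+IL-17A against DOX, where Oas1b differed by -1.47 (limma adjusted p = 0.252) and Pde12 kept a call relative to control at 1.47 (limma adjusted p = 0.0180).

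Of 8 partners and inhibitors of PKR, DOX raised 1 and lowered 3, with a median of -0.48, where 9.15% of all tested genes were called higher and 6.18% lower. Adar, an editing enzyme that acts on double-stranded RNA, rose by 1.75 (limma adjusted p = 5.64e-04). Prkra, whose product PACT activates PKR, fell by 1.65 (limma adjusted p = 3.44e-04), Strbp, an RNA binding protein, fell by 1.33 (limma adjusted p = 0.0049) and Npm1, a nucleolar chaperone, fell by 1.12 (limma adjusted p = 0.0037). Prkra, Strbp and Npm1 were also called lower in DOX+IL-17A than in control, and 0 of the 8 were called between DOX+IL-17A and DOX, where Prkra differed by 0.02.

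Among 14 genes of eIF2, its exchange factor, its other kinases and its phosphatases, DOX raised 2 and lowered 0, with a median of 0.11, and the share raised is near the 9.15% of all tested genes. Eif2b1, a subunit of the exchange factor, rose by 2.44 (limma adjusted p = 7.30e-04). Ppp1r15a, also called GADD34, which directs a phosphatase to eIF2, rose by 2.04 (limma adjusted p = 0.0024). Both were also called in DOX+IL-17A against control, by 2.18 and 1.80, and neither in DOX+IL-17A against DOX, where they differed by -0.26 and -0.25.

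Of 12 genes that carry the interferon signal 11 were in the table, and DOX raised 4 of them, against 9.15% of all tested genes, with a median of 0.41. Among them were Irf7 (3.20), a transcription factor that induces interferon genes, Usp18 (2.92), which limits signaling at the interferon receptor, and the transcription factor Stat2 (1.83), all with a limma adjusted p of 2.54e-04 or less. The same 4 were called lower in DOX+IL-17A than in DOX, against 0.325% of all tested genes, with -1.88 for Irf7, -1.74 for Usp18 and -1.33 for Stat2 (limma adjusted p from 0.0203 to 0.0353). These calls were not stable either. Without DOX+IL-17A replicate 3, 1 gene of all 12319 tested was called in this comparison. Irf7 went from 63.8 to 139 units over the DOX libraries to 24.5, 19.9 and 30.5 units in DOX+IL-17A, with no overlap. Irf9, a partner of Stat2, differed by 0.84 with DOX (limma adjusted p = 0.0267, under the fold limit), and Irf1 and Irf3 by 0.41 and -0.17, short of the threshold. None of the 11 was called with IL-17A alone.

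Genes around the chromosome 5 cluster were called about as often as tested genes in general. Of 11 tested genes other than synthetases within 500 kb of the stretch from Oas2 to Oas1a, DOX raised 1 (Trafd1, log2 fold change 1.57) and lowered 1 (Iqcd, -1.32), and their median was -0.15, where 9.15% of all tested genes were called higher and 6.18% lower. Trafd1 lay 464204 bases away, and Rita1 and Ddx54, at 117744 and 101741 bases, differed by 0.98 and -0.15 without a call. None of the 11 was called in DOX+IL-17A against DOX.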

How the data were processed

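RNA of 13 libraries from 4T1-Thy1.1 cells was measured by 3′ mRNA sequencing (QuantSeq FWD, single 75 base reads). The authors mapped reads to mm10 with STAR, counted them per gene with featureCounts and normalized by TMM. What was deposited is this normalized signal for each gene in each library, without read counts. Every value was a whole multiple, within 0.1 read, of the value of 1 read in its library (100%), and reads were recovered by that step. Strand and multi-mapping settings are not given in the sources used here. Of 13223 rows, 1 identical duplicate was dropped. Conditions came from the labels.

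Values were tested as log2(value + 1) in limma with an intensity trend. Condition was its single factor, all 13 libraries entered, and Benjamini-Hochberg adjustment ran over the 12319 genes that passed edgeR's filterByExpr. Fold changes are on the log2(value + 1) scale, which understates changes of low genes. A call needed an adjusted p below 0.05 and more than 2-fold change, and for the difference between effects only the former. Single values were compared by exact permutation tests, 2-sided. Other genes named are those of 4 pathway lists called in DOX against control or DOX+IL-17A against DOX, and the 10 with the highest Pearson correlation with the mean of the 7 genes. Genes named outside this rule (Irf9, Irf1, Irf3, the chromosome 5 neighbours and markers) were added after values were seen. Some genes of these lists are not reported here. The members and lists were chosen with earlier results of these data known. The pairing check and the alternatives tried (voom, edgeR, DESeq2, scaling, pseudocount, filters, compared groups only, replicate block, threshold, left-out libraries, summed Oas1 pair) are described with their effect in the closing section. Software was python 3.11.15 with scipy 1.17.1, pandas 2.3.3 and numpy 2.4.6, and R 4.3.3 with DESeq2 1.42.0, edgeR 4.0.16 and limma 3.58.1. Intervals on reads cover counting error only.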

Additional observations from a re-analysis of the deposited data

How the results depend on the processing

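In DOX against control all 7 genes kept their direction and their call under every alternative tried, and in IL-17A against control and in the test of the difference between effects 0 of 7 were called under every one of them. In DOX+IL-17A against DOX every value stayed negative, but the count of called genes, 2, became 3 with voom, 0 with library size scaling, 0 with a pseudocount of 0.1, 1 with edgeR, 5 with DESeq2, 5 in the fit of the groups compared, 5 with control replicate 1 and DOX replicate 1 both left out, and 0 to 5 with 1 library left out. In DOX+IL-17A against control the count of 4 became 1 in the fit of the groups compared, 5 with library size scaling or the smaller pseudocount, and 2 to 4 with 1 library left out, and with voom it was 4 with Eif2ak2 in place of Oas2. In DOX+IL-17A against IL-17A the count of 4 became 5 with edgeR, DESeq2, library size scaling or the smaller pseudocount, and 2 to 4 with 1 library left out. The causes of these shifts were not tested.

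Small differences changed sign. For Oas3 in DOX+IL-17A against control the log2 difference was -0.049 with voom, -0.051 with the replicate block, -0.066 with both replicates 1 left out and -0.103 to 0.339 with 1 library left out. For Oasl2 in IL-17A against control it was -0.028 with voom, -0.006 with edgeR, -0.032 with DESeq2, -0.009 with library size scaling, -0.116 with the replicate block, -0.193 with both replicates 1 left out and -0.193 to 0.172 with 1 library left out. In the same comparison both replicates 1 left out gave 0.143 for Oasl1 and 0.115 for Eif2ak2, and 1 library left out gave -0.301 to 0.143 and -0.353 to 0.115. For Oas3 in DOX+IL-17A against IL-17A library size scaling gave 0.087 and 1 library left out gave -0.325 to 0.117. None of these values passed the threshold.

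The labels do not say that a replicate number marks a shared culture or day, and not every same-numbered pair of libraries deviated together. The 13 same-numbered pairs had a mean correlation of deviations of 0.15 (-0.18 to 0.49, 8 over 0.1). The 50 pairs with different numbers had a mean of -0.04 (-0.56 to 0.47, 13 over 0.1). Of 12 libraries with a same-numbered partner, 7 correlated best with their own number. Whether the number marks a shared effect was not tested. With the replicate number as a block, 0 of the 7 genes were called in DOX+IL-17A against DOX, 7 in DOX against control, 4 in DOX+IL-17A against control, with Eif2ak2 in place of Oasl2 (adjusted p = 0.0501), and 3 in DOX+IL-17A against IL-17A.

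Over all tested genes, 54 were called in DOX+IL-17A against DOX, and 35 with edgeR, 93 with DESeq2, 23 with the smaller pseudocount, 87 in the fit of the groups compared, 14 with the block, 85 with both replicates 1 left out and 1 to 88 with 1 library left out. In DOX+IL-17A against control 1589 became 599 in the fit of the groups compared. In DOX+IL-17A against IL-17A 1212 became 689 without IL-17A replicate 3 and 769 without IL-17A replicate 5. The 1 gene called in IL-17A against control became 15 with DESeq2 and 0 to 2 with 1 library left out. Library size scaling raised the median log2 fold change of all genes in DOX against control from 0.09 to 0.24 and the calls from 1127 higher and 761 lower to 1516 higher and 488 lower. It had 1227 higher and 517 lower against 856 and 733 in DOX+IL-17A against control, and 1017 and 381 against 606 and 606 in DOX+IL-17A against IL-17A. Under that scaling the median of the 7 genes in DOX against control was 2.42.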
